A study of Mus musculus with 23 samples.

Results

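The genes described here are 10 members of the bone morphogenetic protein (BMP) pathway and its feedback loop, measured in cultured mouse cortical astrocytes. They are the ligand gene Bmp4, the receptor gene Bmpr1b, the pseudoreceptor gene Bambi, the signal transducer gene Smad9, the inhibitory genes Smad6 and Smad7, and the target genes Id1, Id2, Id3 and Id4. The members were chosen by name as a pathway set, with earlier results of these data known. The Ensembl identifiers in the count files were matched to symbols with a GRCm38 annotation. All 10 were among the 16087 genes that passed the filter on low counts, of 38293 genes in the files.

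The study followed the response of these astrocytes to T3 (triiodothyronine, the active thyroid hormone) by RNA sequencing of 23 libraries. The groups were 24 h with T3 (3 libraries), its 24 h control (4 libraries), 6 h with CHX and T3 (4 libraries), 6 h with CHX (4 libraries), 6 h with T3 (4 libraries) and the 6 h control (4 libraries). T3 was given at 10 nM, and CHX, taken to mean cycloheximide, which blocks translation, at 8 µg/ml from 30 min before T3. What all groups share is their origin: neocortex of mouse pups of a mixed 129/OLa, 129/Sv, BALB/c and C57BL/6 background, taken at postnatal day 3, cultured for 7 days, and then kept for 24 h in medium with 0.1% serum depleted of thyroid hormone. The labels state an astrocyte content above 95%, and no label says whether the libraries of a group were made from different cultures. The p-values therefore speak of the spread among these libraries, part of which may be technical.

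BMP ligands bind paired type I and type II receptors, which phosphorylate SMAD1, SMAD5 and SMAD9. These enter the nucleus with SMAD4 and switch on direct targets, of which the Id genes are the best known. ID proteins have a helix-loop-helix domain without a DNA-binding region and hold back basic helix-loop-helix (bHLH) factors by pairing with their partners. The pathway limits itself through SMAD6, SMAD7 and BAMBI, and in the developing brain it promotes the astrocyte fate in neural precursors.

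Libraries held 13843040 to 22997873 gene counts. Levels are given in CPM, the usual per-million unit on TMM-scaled library sizes, which are relative to the rest of a library, and in such bulk samples fewer cells of a type and less RNA per cell cannot be told apart. Of 12 astrocyte markers, all 12 were detected in every library, with Gfap at 2321 to 5627 CPM and Gjb6 at 0.0992 to 2.11 CPM. Some markers of other cells were also present. Of the vascular and meningeal list, Acta2, of smooth muscle and pericytes, had 1175 to 2736 CPM, Pdgfrb 144 to 220 CPM and Col1a1 27.3 to 238 CPM. Others of that list were low, with Rgs5 at 2.34 to 5.88 CPM, Pecam1 at most at 0.970 CPM and Cldn5 at 0 in 7 libraries. Of the oligodendrocyte lineage list, Pdgfra had 27.9 to 165 CPM, while Mog was at 0 in 8 libraries and Mobp at 0 in 7. By a token in the file names, the 6 h control, the 6 h T3 and 3 of the 4 6 h CHX libraries were sequenced on lane 5. CHX replicate 4, all CHX plus T3 and 24 h control libraries and 2 of the 3 24 h T3 libraries were on lane 6, and 24 h T3 replicate 3 was on lane 7. Alignments that were not unique made up 42.3% in 24 h T3 replicate 1 and 42.1% in 6 h control replicate 4, the highest shares, 30.7% to 32.9% in the 8 CHX libraries and 36.2% to 39.6% in the other libraries. The 24 h control replicates 2 and 4 had the highest summed oligodendrocyte lineage markers, at 310 and 346 CPM.

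CHX divided the 10 genes into 2 sets of 5. With CHX the 4 Id genes and Smad6 were lower, and Bmp4, Bambi, Bmpr1b, Smad7 and Smad9 were higher, both in the presence and in the absence of T3, where 67.3% and 67.5% of all genes tested were called. The CHX effect ran from a 15.0-fold higher level of Bmp4 to Id1, which fell by 70.9%, each relative to the 6 h control. With T3, at 24 h Bambi and Id2 were higher than in controls (7.09% of all genes were called), and at 6 h none of the 10 genes passed the test, with CHX (1.29% of all genes called) or without it (3.77%). The plot of levels by library shows all 23 values for each gene.

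**Figure D1:**
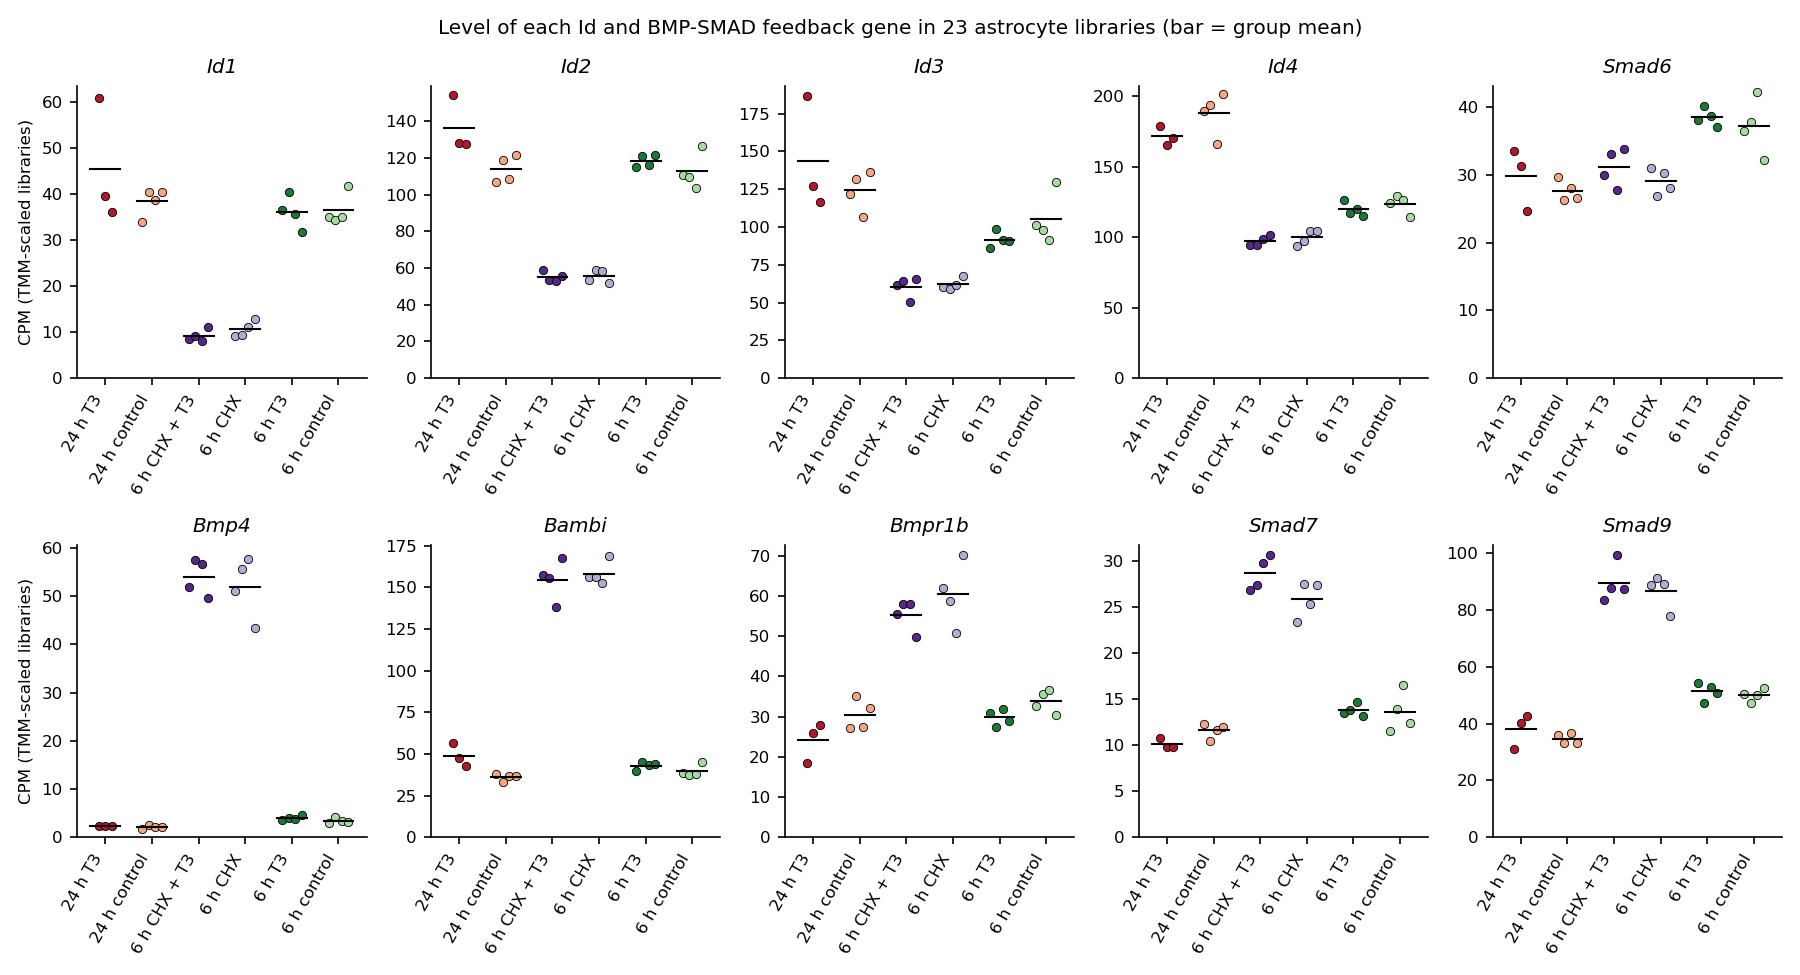
Level of each gene in CPM (vertical axes, starting at 0) in the 6 groups (horizontal axes). Each point is 1 library and each bar a group mean; for Bmp4 all 8 CHX libraries lie between 43.4 and 57.8 CPM, above all 15 libraries without CHX, which reach at most 4.59 CPM.

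Per kb of exon, which allows levels of different genes to be compared, the Id genes were the most abundant of the 10 in cells without CHX. In 6 h controls Id3 averaged 58.6 ± 9.55 CPM per kb, Id2 46.2 ± 3.97, Id4 32.1 ± 1.66 and Id1 31.6 ± 3.02 (SD, n = 4). The feedback and receptor genes followed, from Smad6 at 11.6 ± 1.28 CPM per kb down to Smad7 at 3.00 ± 0.479, and Bmp4 was lowest at 1.53 ± 0.255 CPM per kb (SD, n = 4). In the 6 h CHX libraries Bambi came at rank 2 of the 10, with 31.2 ± 1.403 CPM per kb, Bmp4 at rank 4, with 23.1 ± 2.83, and Id1 at rank 8, with 9.20 ± 1.45 (SD, n = 4).

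Id1 (chr2:152736251-152737410, plus strand; coordinates are of the gene in GRCm38) encodes an ID protein and is an early target of BMP signals. It had 8.62, 9.25, 8.05 and 11.0 CPM in the 4 CHX plus T3 libraries, against 36.5, 40.4, 35.6 and 31.8 CPM with T3 alone. It had 9.23, 9.48, 11.1 and 12.8 CPM with CHX, against 35.1, 34.4, 35.1 and 41.9 CPM in 6 h controls. Every library with CHX was below every library without it. The log2 fold change was -1.96 ± 0.14 (SE) with T3 present (edgeR quasi-likelihood F test, Benjamini-Hochberg adjusted p = 1.04e-11) and -1.78 ± 0.14 without T3 (adjusted p = 4.47e-11). Among all genes tested, the change without T3 stood at percentile 1.12, and that with T3 at percentile 0.814.

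Id2 (chr12:25093799-25097140, minus strand), an ID protein known for holding precursor cells back from oligodendrocyte and neuronal differentiation, had 59.2, 53.6, 53.0 and 55.7 CPM with CHX plus T3, against 115, 121, 116 and 122 CPM with T3. Its values were 53.4, 58.8, 58.2 and 51.6 CPM with CHX, against 111, 110, 104 and 126 CPM in 6 h controls. Id2 was thus lower in all 8 CHX libraries, and the groups did not overlap. In the edgeR test its log2 fold change was -1.10 ± 0.07 with T3 present (adjusted p = 8.14e-13) and -1.02 ± 0.07 without T3 (adjusted p = 2.95e-12).

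Id3 (chr4:136143497-136145755, plus strand), whose product acts on the same bHLH partners as ID1, had 61.6, 64.2, 50.4 and 65.5 CPM with CHX plus T3, against 86.1, 98.8, 91.1 and 90.4 CPM with T3. It had 60.1, 59.0, 61.4 and 67.9 CPM with CHX, against 101, 97.7, 91.4 and 130 CPM in 6 h controls. Id4 (chr13:48261228-48266026, plus strand) had the smallest change of the 4, with 94.1, 94.7, 98.6 and 102 CPM with CHX plus T3, against 126, 117, 120 and 115 CPM with T3. Neither gene had overlapping groups: the lowest library without CHX lay above the highest with CHX in each comparison. Id4 had 93.8, 97.0, 104 and 104 CPM with CHX, against 124, 129, 126 and 115 CPM in 6 h controls. In the edgeR test Id3 changed by -0.60 ± 0.12 (log2, SE) with T3 present (adjusted p = 0.000126) and by -0.76 ± 0.12 without T3 (adjusted p = 6.48e-06), and Id4 by -0.30 ± 0.06 (adjusted p = 7.19e-05) and by -0.31 ± 0.06 (adjusted p = 4.76e-05) in the same comparisons. An antisense gene, A330033J07Rik, overlaps Id4 exons over 82 bases, where the unstranded reads of the 2 genes cannot be separated; it had 989 counts in all libraries together.

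The promoter windows of the Id genes are shown because the 4 genes moved together. Each window runs from 250 bases before to 50 after the start site in RefSeq (GRCm38.p6), on the strand of the gene and 5′ to 3′. Capitals mark 2 motifs that SMAD proteins are known to bind, the palindrome GGCGCC and the shorter motif CAGAC, which reads GTCTG on the opposite strand; both strands were searched. The windows are Id2 at chr12:25096043-25096342 on the minus strand, Id3 at chr4:136143572-136143871 on the plus strand, and Id4 at chr13:48260866-48261165 on the plus strand. Their RefSeq start sites differ from the gene ends given above: the Id2 and Id3 windows lie inside those gene coordinates and the Id4 window before them. Positions are counted from the RefSeq start sites.
Id2: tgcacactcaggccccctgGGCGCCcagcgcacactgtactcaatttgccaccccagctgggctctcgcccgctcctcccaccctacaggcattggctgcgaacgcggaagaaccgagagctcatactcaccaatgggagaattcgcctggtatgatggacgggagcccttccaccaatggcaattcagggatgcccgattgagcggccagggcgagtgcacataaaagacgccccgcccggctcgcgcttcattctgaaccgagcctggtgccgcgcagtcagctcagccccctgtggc
Id3: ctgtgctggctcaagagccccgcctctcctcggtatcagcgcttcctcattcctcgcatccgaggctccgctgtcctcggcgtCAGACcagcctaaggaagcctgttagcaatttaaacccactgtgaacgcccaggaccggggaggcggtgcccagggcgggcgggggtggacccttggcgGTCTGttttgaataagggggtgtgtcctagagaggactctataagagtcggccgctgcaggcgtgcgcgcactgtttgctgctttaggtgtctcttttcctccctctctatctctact
Id4: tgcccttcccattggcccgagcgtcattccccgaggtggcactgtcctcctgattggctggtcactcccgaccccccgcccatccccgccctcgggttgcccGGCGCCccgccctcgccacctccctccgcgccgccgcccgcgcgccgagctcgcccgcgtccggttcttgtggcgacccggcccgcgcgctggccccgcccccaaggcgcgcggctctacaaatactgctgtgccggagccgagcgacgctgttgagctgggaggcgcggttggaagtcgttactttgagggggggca
The Id2 window has 1 GGCGCC starting at -231 from the start site and the Id4 window 1 at -148. The Id3 window has a CAGAC at -167 and a GTCTG at -68. Of 32851 mouse promoter windows of 300 bases, 11.9% hold GGCGCC and 49.6% hold CAGAC on either strand, so such matches are common letters and are given as a description. Promoter windows were matched for 7 of the 10 members, without Id1, Smad7 and Bambi.

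The summed length-scaled level of the 4 Id genes showed the family as a whole. It was 89.7 ± 5.36 CPM per kb with CHX plus T3, against 162 ± 5.50 with T3, and 92.6 ± 4.21 with CHX, against 169 ± 14.9 in 6 h controls (SD, n = 4 each). The make-up of the family also differed: Id1 contributed 8.86% ± 0.788 with CHX plus T3, against 19.2% ± 1.33 with T3, and 9.90% ± 1.12 with CHX, against 18.7% ± 0.516 in controls. The share of Id4 was 28.2% ± 1.91 with CHX plus T3, against 19.2% ± 1.10 with T3, and 28.0% ± 0.385 with CHX, against 19.2% ± 2.44 in controls. No library with CHX overlapped any 6 h library without it in the sum, in the share of Id1 or in the share of Id4.

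**Figure D2:**
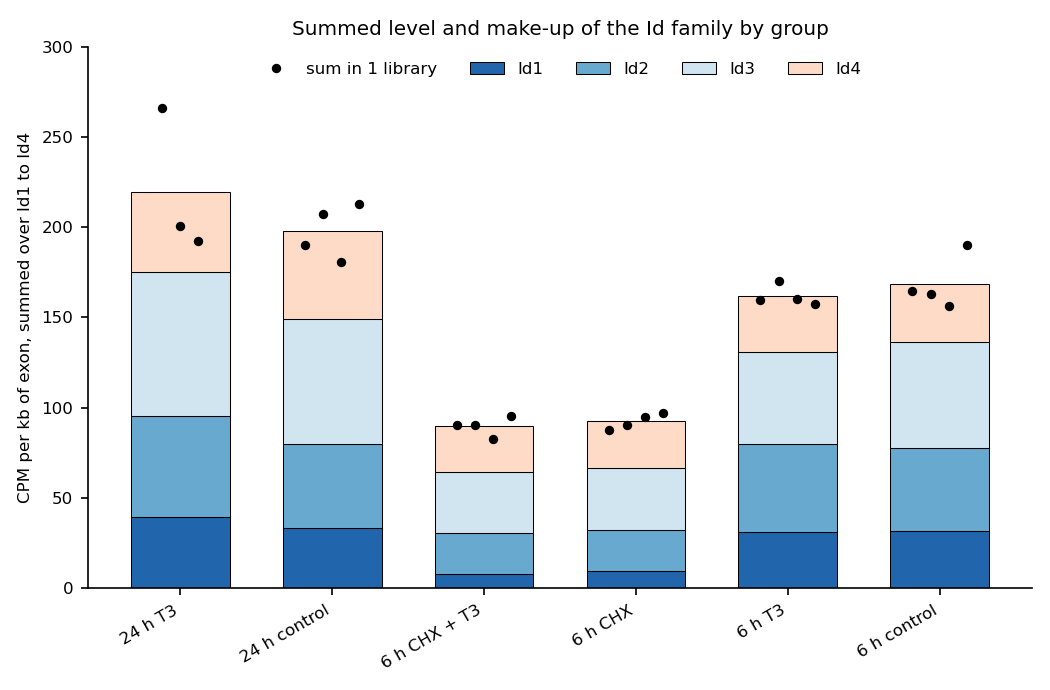
Summed level of Id1 to Id4 in CPM per kb of exon (vertical axis, from 0) in the 6 groups. Stacked bars are group means of the 4 genes and points are the sums in single libraries; with CHX the sums lie between 82.4 and 97.1, below all 6 h libraries without CHX, which lie between 157 and 190.

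Smad6 (chr9:63953076-64022059, minus strand), which encodes an inhibitory SMAD that prefers BMP receptors, was the feedback gene that moved with the Id genes. It had 30.0, 33.0, 27.8 and 33.8 CPM with CHX plus T3, against 38.1, 40.2, 38.7 and 37.0 CPM with T3. It had 31.0, 26.9, 30.3 and 28.0 CPM with CHX, against 36.5, 37.9, 42.2 and 32.3 CPM in 6 h controls. The groups did not overlap, although the control of replicate 4, the lowest, came close to the CHX libraries. Its log2 fold change in the edgeR test was -0.30 ± 0.09 with T3 present (adjusted p = 0.00390) and -0.36 ± 0.09 without T3 (adjusted p = 0.000996). With T3 present, the call was lost with lane as a covariate (log2 -0.23, adjusted p = 0.211), where the shift between lanes 5 and 6 rests on CHX replicate 4. It was also lost with a length and GC trend removed (log2 -0.15, adjusted p = 0.0584). Over the 17 alternatives of Smad6 the adjusted p ran from 0.000655 to 0.211.

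Bmp4 (chr14:46383520-46390669, minus strand), the ligand, showed the largest change of the 10. It had 52.0, 57.6, 56.7 and 49.5 CPM with CHX plus T3, against 3.59, 4.01, 3.72 and 4.59 CPM with T3. It had 51.1, 55.6, 57.8 and 43.4 CPM with CHX, against 2.91, 4.23, 3.43 and 3.18 CPM in 6 h controls. The groups lay far apart: a library with CHX plus T3 held 796 to 1049 counts of the gene, against 63 to 88 with T3, and one with CHX alone 804 to 1032, against 42 to 71 in a control. The log2 fold change was 3.76 ± 0.11 with T3 present (13.5-fold, adjusted p = 5.00e-19) and 3.91 ± 0.12 without T3 (15.0-fold, adjusted p = 3.92e-19, edgeR). By p-value it ranked 26 of 16087 genes with T3 and 34 without T3. A second gene on the opposite strand, Gm15217, overlaps 89 bases of Bmp4 exon and had 26 counts in all libraries together.

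The Bmp4 promoter window, at chr14:46390620-46390919 on the minus strand (RefSeq, GRCm38.p6), is shown for the gene with the largest change. It was searched for the 2 SMAD motifs, for AGGTCA, letters found in sites of nuclear receptors such as the thyroid hormone receptor, and for TGACGTCA, the cAMP response element, on both strands.
Bmp4: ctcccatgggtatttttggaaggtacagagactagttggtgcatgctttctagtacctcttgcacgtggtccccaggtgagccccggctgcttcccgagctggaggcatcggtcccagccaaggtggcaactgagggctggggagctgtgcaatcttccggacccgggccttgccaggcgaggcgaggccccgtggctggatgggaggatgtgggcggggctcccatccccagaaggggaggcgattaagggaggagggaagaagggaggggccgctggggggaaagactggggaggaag
None of the 4 motifs was found in these 300 bases, which says only that these letters are not in the window; AGGTCA occurs in 16.3% and TGACGTCA in 1.79% of all windows. Among the other members, Smad9 has a GGCGCC at -51, the Smad6 window holds none of the 4, and of the 3 Bmpr1b windows 1 holds a CAGAC at -128, 1 holds a GTCTG at -245 and an AGGTCA at -106, and 1 holds none.

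Bambi, a transmembrane protein shaped like a type I receptor without a kinase, which damps BMP and TGF-beta signals (chr18:3507923-3516404, plus strand), rose with CHX. It had 158, 155, 138 and 168 CPM with CHX plus T3, against 39.4, 45.0, 43.2 and 43.9 CPM with T3. It had 156, 156, 152 and 169 CPM with CHX, against 38.6, 37.6, 37.6 and 44.9 CPM in 6 h controls. All 8 libraries with CHX were at or above 138 CPM, and all 8 of the 6 h libraries without it were at or below 45.0 CPM. In the edgeR test the log2 fold change was 1.85 ± 0.08 with T3 present (adjusted p = 3.84e-16) and 1.998 ± 0.08 without T3 (3.99-fold, adjusted p = 1.01e-16).

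Bmpr1b (chr3:141837136-142169425, minus strand), a type I receptor of BMP ligands, had 55.4, 58.0, 57.9 and 49.9 CPM with CHX plus T3, against 31.0, 27.4, 32.0 and 28.9 CPM with T3. It had 61.9, 58.8, 50.7 and 70.1 CPM with CHX, against 32.6, 35.7, 36.7 and 30.4 CPM in 6 h controls. The groups did not overlap, and the spread was widest among the CHX libraries. The log2 fold change in the edgeR test was 0.89 ± 0.11 with T3 present (adjusted p = 1.03e-07) and 0.83 ± 0.11 without T3 (adjusted p = 2.81e-07).

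Smad7 (chr18:75367529-75395935, plus strand), whose product blocks receptors of both the BMP and the TGF-beta arm, went the opposite way from Smad6. It had 26.8, 27.3, 29.8 and 30.6 CPM with CHX plus T3, against 13.4, 13.8, 14.6 and 13.1 CPM with T3. It had 23.4, 27.4, 25.3 and 27.3 CPM with CHX, against 11.5, 13.9, 16.5 and 12.4 CPM in 6 h controls. All libraries with CHX lay above all those without, and in the edgeR test the log2 fold change was 1.06 ± 0.09 with T3 (adjusted p = 1.30e-10) and 0.92 ± 0.09 without T3 (adjusted p = 1.96e-09).

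Smad9 (chr3:54755582-54801257, plus strand), a receptor-activated SMAD that is itself a BMP target, had 83.4, 87.8, 99.4 and 87.3 CPM with CHX plus T3, against 54.4, 47.3, 53.0 and 50.7 CPM with T3. It had 88.8, 91.2, 89.3 and 78.0 CPM with CHX, against 50.2, 47.2, 50.2 and 52.6 CPM in 6 h controls. No groups overlapped, and in the edgeR test the log2 fold change was 0.80 ± 0.08 both with T3 (adjusted p = 1.72e-09) and without T3 (adjusted p = 2.12e-09).

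Thus 5 of 10 members were called higher and 5 lower in each CHX comparison, at an adjusted p under 0.05. These counts are to be read against a broad response: 67.5% of all genes tested were called with CHX against control (37.0% higher, 30.6% lower) and 67.3% with CHX plus T3 against T3 (36.3% higher, 31.0% lower). Non-overlapping groups, seen for all 10 members in both, occurred in 62.7% and 63.6% of all genes. The median log2 fold change of the 10 was 0.24 without T3, beside 0.06 over all genes, and 0.25 with T3, beside 0.04. The pair of CHX comparisons share no library, and each gene had the same sign in both, as the plot of CHX effects shows. The share of all genes with the same sign in both is not given here. The size of the CHX effect was not called different with and without T3 for any of the 10 genes (0 called by edgeR or DESeq2, background 1.22% called, 0.584% higher and 0.634% lower). An unadjusted p under 0.05 was seen for 0 of the 10 and for 2157 of all 16087 genes. The difference (log2, with T3 minus without) was -0.18 for Id1 (95% interval -0.60 to 0.23), -0.15 for Bmp4 (-0.49 to 0.19) and 0.14 for Smad7 (-0.12 to 0.40). CHX plus T3 and T3 were on different lanes, while CHX replicates 1, 2 and 3 shared lane 5 with the controls.

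**Figure D3:**
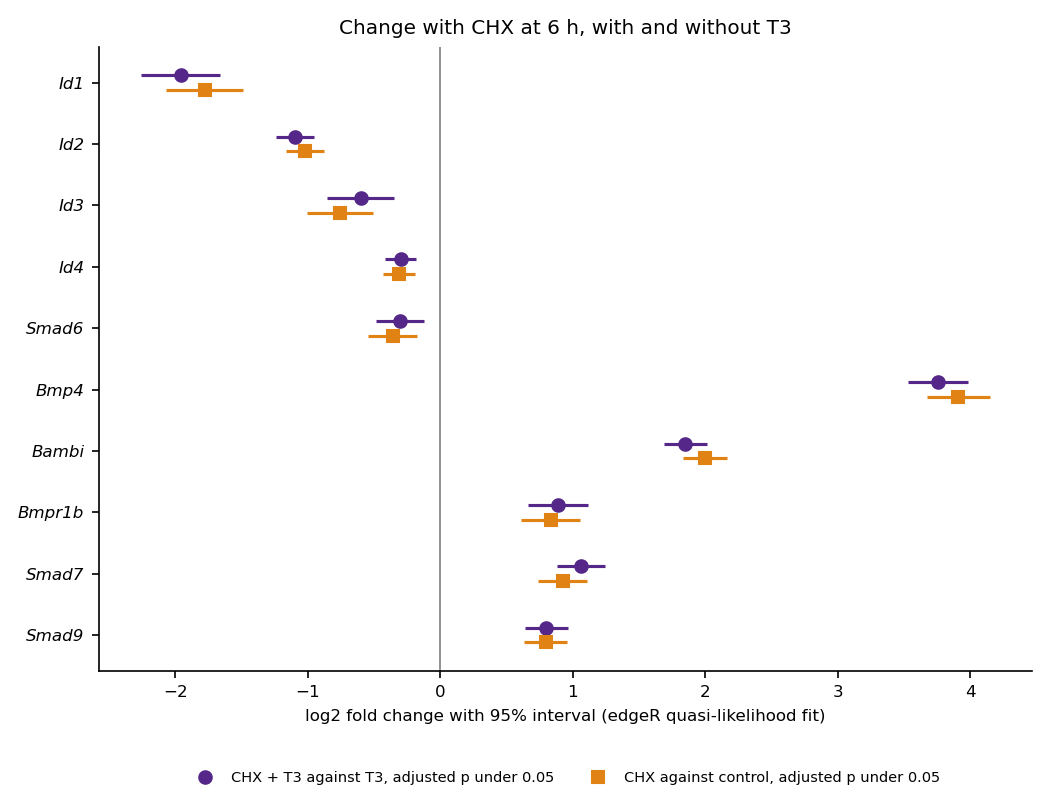
Log2 fold change with CHX for each gene (horizontal axis), with its 95% interval as a line. Circles compare CHX plus T3 with T3 and squares CHX with control, all 20 past an adjusted p of 0.05; Id1 to Id4 and Smad6 lie left of 0, and Bmp4, at 3.76 and 3.91, lies farthest right.

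Levels of cell type markers also moved with CHX. The summed level of 12 astrocyte markers was 8996 to 9576 CPM with CHX plus T3, against 13747 to 14139 with T3, and 9297 to 10838 CPM with CHX, against 12370 to 13468 in controls. The 12 microglia markers summed to 32.0 to 37.8 CPM with CHX plus T3, against 73.7 to 82.4 with T3, and to 39.2 to 59.6 CPM with CHX, against 55.8 to 73.2 in controls. For the 12 oligodendrocyte lineage markers, 8 of them tested, the sums were 64.4 to 83.7 CPM with CHX plus T3, against 125 to 170 with T3. They were 78.1 to 186 CPM with CHX, against 107 to 123 in controls. The sums of the 12 neuron markers, 10 of them tested, were 139 to 154 CPM with CHX plus T3, against 213 to 234 with T3. They were 157 to 204 CPM with CHX, against 185 to 225 in controls. Those of the 14 vascular and meningeal markers, 10 of them tested, were 1699 to 1865 CPM with CHX plus T3, against 1855 to 2123 with T3. They were 1419 to 1868 CPM with CHX, against 2160 to 2289 in controls. The part of all these markers in the changes of the Id and feedback genes was not tested.

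The rest of the pathway was read from 7 lists, and CHX moved genes of each list in both directions; among all genes 37.0% were called higher and 30.6% lower in this comparison, and the counts below are to be read against those shares. The BMP ligand list, without Bmp4, held 8 tested genes and includes Bmp1, which encodes a protease. With CHX against control 4 of them rose and 3 fell, Bmp1 among the latter. Bmp2, a close relative of Bmp4, rose (log2 2.07 ± 0.16, edgeR adjusted p = 1.92e-11), and Gdf11 fell (-0.89 ± 0.06, adjusted p = 2.49e-12). Of 10 receptors and co-receptors, 1 rose and 5 fell. Bmpr1a, the other main type I BMP receptor, had 204 CPM on average with CHX, against 425 CPM in controls (log2 -1.06 ± 0.07, adjusted p = 4.90e-13), in the direction opposite to Bmpr1b. Acvr1, a further type I receptor, rose (0.70 ± 0.07, adjusted p = 5.91e-09, edgeR).

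Of 18 other SMADs and SMAD regulators, 7 rose and 7 fell. Tgif1, a co-repressor of SMAD targets, rose (log2 0.81 ± 0.06, adjusted p = 3.09e-12), and the SMAD phosphatase gene Ppm1a fell (-0.89 ± 0.05, adjusted p = 3.21e-14). Of 15 secreted antagonists, 5 rose and 6 fell, among them Twsg1, a BMP-binding modulator (-0.97 ± 0.05, adjusted p = 9.75e-15), and Nbl1, a BMP antagonist (-0.86 ± 0.07, adjusted p = 3.47e-11). Among 13 other known BMP targets, 6 rose and 6 fell: Junb, an immediate early gene, rose (2.98 ± 0.13, adjusted p = 5.80e-16), and Hes1, also a Notch target, fell (-0.91 ± 0.09, adjusted p = 2.34e-09). The edgeR test called 3 of 11 bHLH partners and relatives higher and 5 lower, with Bhlhe41 at 1.39 ± 0.05 (adjusted p = 2.26e-17) and Olig2 at -1.21 ± 0.08 (adjusted p = 1.59e-12). In the TGF-beta arm 3 of 14 rose and 10 fell, with a median log2 fold change of -0.66, beside 0.06 over all genes; Tgfbr2, its type II receptor, fell (-0.83 ± 0.06, adjusted p = 1.76e-11). The medians of the other 6 lists lay between -0.22 and 0.51.

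**Figure D4:**
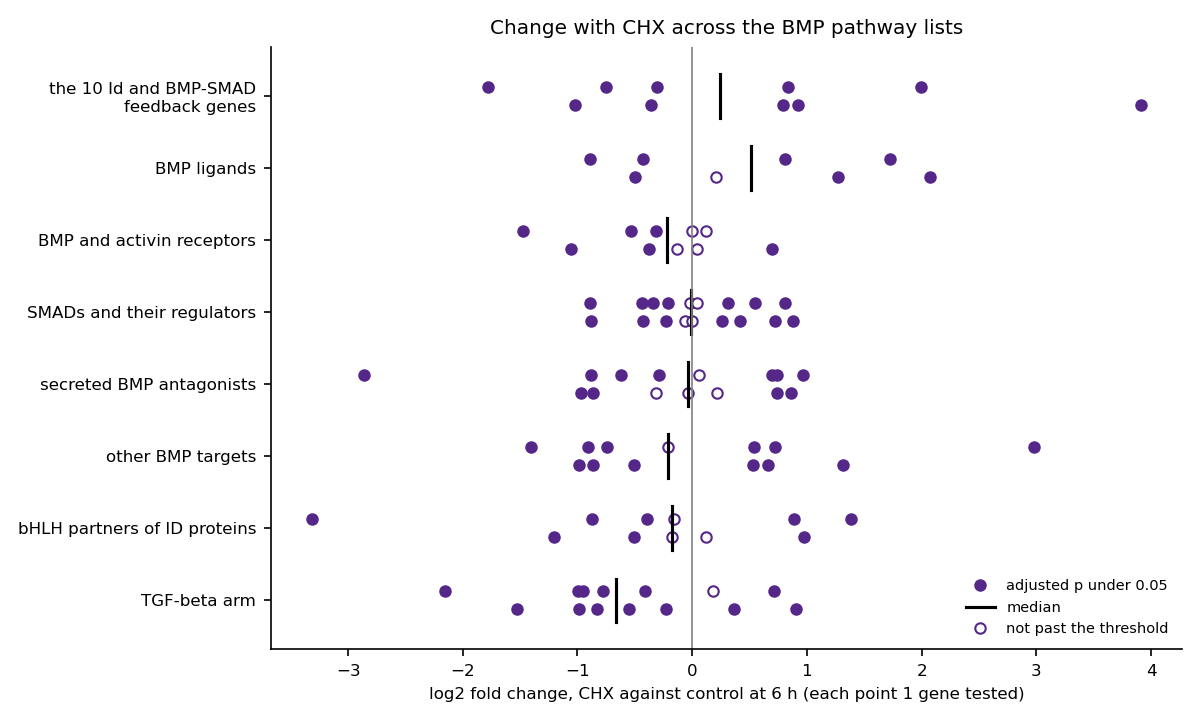
Log2 fold change with CHX against control at 6 h (horizontal axis) for the 10 Id and feedback genes and for every tested gene of the 7 pathway lists (rows). Filled points passed an adjusted p of 0.05, open points did not, and black bars are medians; the TGF-beta arm has the lowest median, -0.66, and the BMP ligands the highest, 0.51.

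T3 for 24 h raised 2 of the 10 genes, Bambi and Id2, where 7.09% of all genes were called (4.41% higher, 2.68% lower). Bambi had 56.8, 47.4 and 42.7 CPM with T3, against 37.8, 32.9, 36.6 and 36.6 CPM in 24 h controls. Id2 had 154, 128 and 127 CPM with T3, against 107, 119, 108 and 121 CPM in controls. Neither gene had overlapping groups, which was so for 15.1% of all genes, and in both 24 h T3 replicate 1 was the highest library. The log2 fold change of Bambi was 0.44 ± 0.09 (1.36-fold, edgeR adjusted p = 0.00133) and that of Id2 was 0.26 ± 0.07 (1.20-fold, adjusted p = 0.0276).

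The call for Bambi held in 16 of 17 alternatives and that for Id2 in 12 of 17. Without 24 h T3 replicate 1, Bambi stood at 0.32 (adjusted p = 0.0147) and Id2 at 0.17 (adjusted p = 0.206, edgeR). Id2 was also not called without 24 h control replicate 1 (0.23, adjusted p = 0.0863) or replicate 3 (0.24, adjusted p = 0.0723). With only the 24 h groups in the fit neither was called, Bambi at 0.43 (adjusted p = 0.0602) and Id2 at 0.25 (adjusted p = 0.218). Without 24 h control replicates 2 and 4, which had the highest oligodendrocyte lineage markers, the values were 0.38 for Bambi (adjusted p = 0.0399) and 0.33 for Id2 (adjusted p = 0.0295). Over all alternatives the adjusted p ran from 5.60e-05 to 0.0602 for Bambi and from 0.0127 to 0.218 for Id2.

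The same library, 24 h T3 replicate 1, was also apart from its group in other members. Id1 had 60.9, 39.7 and 36.0 CPM with T3, against 34.0, 40.4, 38.8 and 40.5 CPM in controls, and Id3 had 186, 127 and 117 CPM, against 122, 132, 107 and 136 CPM. Outside that library the Id1 and Id3 values with T3 lay within the range of the controls. Id1 changed by 0.24 ± 0.14 (adjusted p = 0.340) and Id3 by 0.20 ± 0.13 (adjusted p = 0.384) on the log2 scale in the edgeR test, and without replicate 1 by -0.02 and -0.03 (adjusted p = 0.959 and 0.953). Over its alternatives the adjusted p of Id1 ran from 0.0705 to 0.959 and that of Id3 from 0.109 to 0.953.

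Bmpr1b had 18.5, 25.8 and 28.0 CPM with T3 at 24 h, against 27.0, 35.2, 27.4 and 32.2 CPM in controls. Replicate 1 was here the lowest library, and the groups overlapped. The log2 fold change of Bmpr1b, -0.33 ± 0.12, did not pass the edgeR test (adjusted p = 0.110). It did with lane as a covariate (-0.45, adjusted p = 0.0262) and without 24 h T3 replicate 3 (-0.45, adjusted p = 0.0363). These fits are not independent: replicate 3 was the only library on lane 7, so the lane covariate takes it out of this comparison. Over the alternatives of Bmpr1b the adjusted p ran from 0.0262 to 0.592. Smad9 had 31.1, 40.3 and 42.5 CPM with T3, against 36.0, 33.1, 36.6 and 33.2 CPM in controls, and was called (log2 0.25, adjusted p = 0.0302) when 24 h T3 replicate 1 and 6 h CHX replicate 4 were left out together. With all libraries it stood at 0.13 ± 0.09 (adjusted p = 0.407), and its alternatives ran from 0.0302 to 0.843.

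The other 4 members overlapped between T3 and control at 24 h. Id4 had 178, 165 and 170 CPM with T3, against 190, 194, 166 and 202 CPM in controls (log2 -0.13 ± 0.06, edgeR adjusted p = 0.222). Smad7 had 10.8, 9.80 and 9.81 CPM with T3, against 12.3, 10.4, 11.6 and 12.0 CPM in controls (-0.20 ± 0.10, adjusted p = 0.287). Smad6 had 33.5, 31.3 and 24.6 CPM with T3, against 29.7, 26.3, 28.0 and 26.5 CPM in controls (0.11 ± 0.10, adjusted p = 0.584). None of these 3 was called, and 95% intervals of their log2 changes stayed within -0.41 and 0.30. Bmp4 was low in all 7 libraries, at 2.27, 2.26 and 2.32 CPM with T3, against 1.70, 2.59, 2.18 and 2.17 CPM in controls (log2 0.07 ± 0.18, adjusted p = 0.863).

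At 6 h T3 gave no call among the 10 members without CHX, where 3.77% of all genes were called (2.61% higher, 1.16% lower). It gave none with CHX either, where 1.29% were called (1.16% higher, 0.131% lower). With CHX, T3 and lane nearly coincide, since all CHX plus T3 libraries were on lane 6 and CHX replicates 1, 2 and 3 on lane 5. In both comparisons DESeq2 also called 0, and 0 members had an unadjusted p under 0.05. Of all 16087 genes, 2681 had such a p in the edgeR test without CHX and 2027 with CHX. Without CHX the log2 changes ran from -0.20 for Id3 (95% interval -0.44 to 0.05) to 0.21 for Bmp4 (-0.09 to 0.50); without 6 h control replicate 4, the highest of the 6 h libraries in Id3, the change of Id3 was -0.08 (adjusted p = 0.833, range 0.213 to 0.833). With CHX they ran from -0.20 for Id1 (-0.52 to 0.11) to 0.15 for Smad7 (-0.02 to 0.33). All groups overlapped in both, whereas groups did not overlap for 11.5% of all genes without CHX and 12.3% with CHX. Bambi changed by 0.11 (-0.05 to 0.28) without CHX and by -0.03 (-0.19 to 0.12) with CHX, and Id2 by 0.07 (-0.07 to 0.21) and by -0.00 (-0.15 to 0.14).

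A test of whether the T3 effect differed between 24 h and 6 h called 0 of the 10 members with edgeR and with DESeq2. By edgeR 0.839% of all genes were called (0.541% higher, 0.298% lower). An unadjusted p under 0.05 was seen for 2510 of all 16087 genes and for 2 of the 10 members. These were Id3, with a difference of 0.40 ± 0.18 (log2, 24 h minus 6 h, adjusted p = 0.278), and Bambi, with 0.33 ± 0.12 (adjusted p = 0.187). With lane as a covariate the difference for Bambi was called at 0.42 (adjusted p = 0.0474), and over its 25 alternatives the adjusted p ran from 0.0474 to 0.531. That covariate takes 24 h T3 replicate 3, the only library on lane 7, out of the comparison. Without 24 h T3 replicate 1 the difference was 0.17 for Id3 (adjusted p = 0.751, range 0.0809 to 0.751) and 0.21 for Bambi (adjusted p = 0.494). The plot of T3 effects sets the 3 comparisons side by side.

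**Figure D5:**
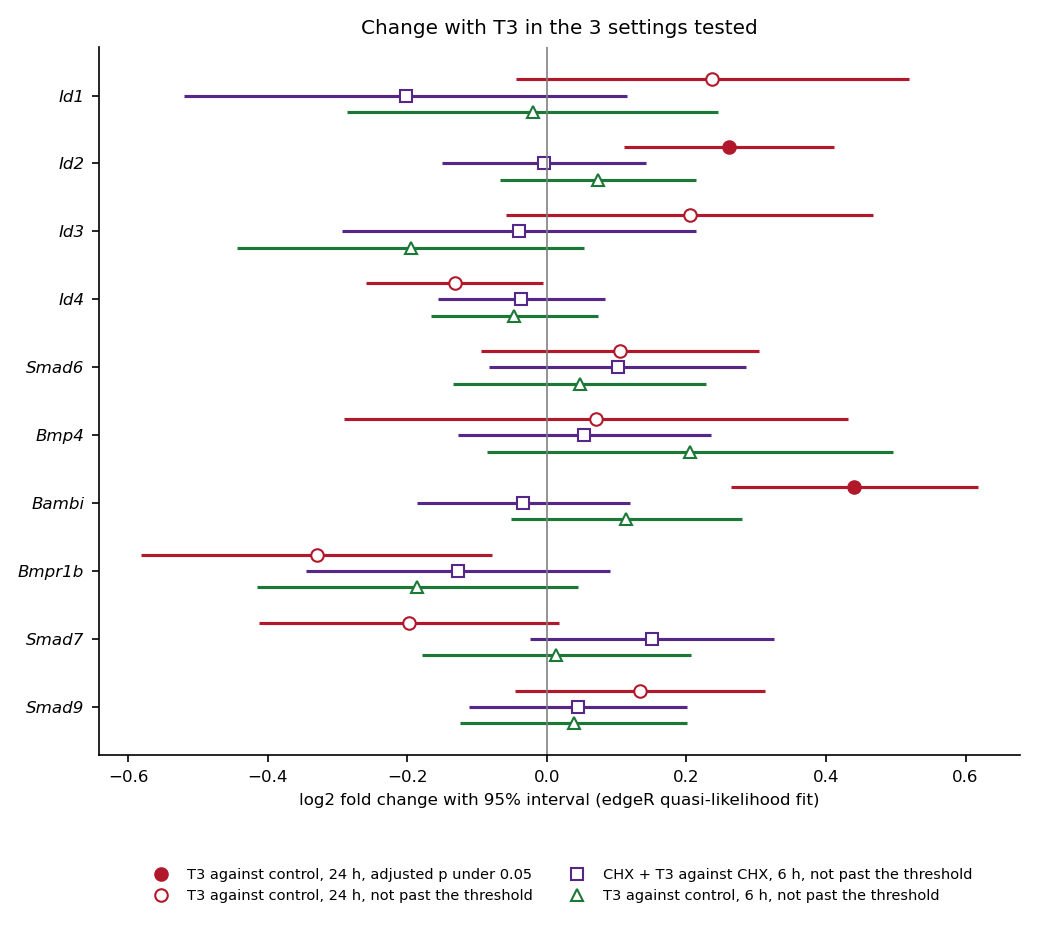
Log2 fold change with T3 for each gene (horizontal axis), with its 95% interval as a line, at 24 h (circles), at 6 h with CHX present (squares) and at 6 h (triangles). Filled symbols passed an adjusted p of 0.05; these are Bambi at 0.44 and Id2 at 0.26, both at 24 h.

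Around the members, T3 moved several genes of the pathway lists; at 24 h 4.41% of all genes were called higher and 2.68% lower. At 24 h the secreted protease gene Htra1, whose product also binds BMP and TGF-beta ligands, rose (log2 1.20 ± 0.11, adjusted p = 3.08e-08), and so did Sostdc1, a secreted BMP antagonist (0.64 ± 0.07, adjusted p = 1.54e-06); they were the 2 called of 15 antagonists. Of 8 genes of the ligand list, Gdf11 and Bmp1, which despite its name encodes a protease, rose (0.30 ± 0.06, adjusted p = 0.00290, and 0.23 ± 0.04, adjusted p = 0.00103, edgeR). None of 10 receptors was called in either direction, and 1 had an unadjusted p under 0.05, beside 3311 of all 16087 genes. Of 18 SMADs and regulators, Zeb1 fell (-0.41 ± 0.08, adjusted p = 0.00213), and of 14 genes of the TGF-beta arm 3 fell, among them Inhbb, which encodes an activin subunit (-0.28 ± 0.06, adjusted p = 0.00645). Of 13 other BMP targets 2 rose and 1 fell, among them Hey1 (0.39 ± 0.06, adjusted p = 8.90e-05), a Notch and BMP target.

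The bHLH factors, whose partners the ID proteins bind, held 5 genes called lower and 0 higher of 11 at 24 h, and 4 lower and 1 higher at 6 h, beside 2.68% of all genes lower and 4.41% higher at 24 h, and 1.16% lower and 2.61% higher at 6 h. Olig2 was called at 24 h (-0.36 ± 0.09, adjusted p = 0.00902) and Hes6 at 6 h (-0.50 ± 0.10, adjusted p = 0.00373). The median of the list was -0.26 at 24 h and -0.12 at 6 h, beside 0.00 over all genes in both. With CHX present 1 of the 11, Bhlhe40, was called higher with T3 (0.37 ± 0.05, adjusted p = 0.000127) and 0 lower (edgeR), beside 1.16% and 0.131% of all genes. T3 and lane nearly coincide in that comparison.

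In the other lists at 6 h, Gdf11 was the 1 ligand called (log2 0.29 ± 0.06, adjusted p = 0.00361), Sostdc1 rose (0.27 ± 0.07, adjusted p = 0.0235) and Chrd, a BMP-binding antagonist, fell (-0.48 ± 0.13, adjusted p = 0.0277). Tgif2, a co-repressor of SMAD targets, fell (-0.44 ± 0.08, adjusted p = 0.00124). Hey1 and Dlx1 rose and Hes1 fell among the BMP targets, and Ltbp1 was the 1 gene of the TGF-beta arm called, at 0.40 ± 0.07 (adjusted p = 0.00132). No receptor was called, and none had an unadjusted p under 0.05, beside 2681 of all 16087 genes. With CHX present, genes called higher with T3 were Skil, a SMAD co-repressor (0.48 ± 0.08, adjusted p = 0.000848), Tob2 (0.29 ± 0.07, adjusted p = 0.0413) and Pmepa1, a TGF-beta feedback gene (0.40 ± 0.07, adjusted p = 0.000848, edgeR). Of all genes 1.16% were called higher and 0.131% lower there. T3 and lane nearly coincide in that comparison, and no fit with lane is reported here for these genes. At 24 h vascular and meningeal markers summed to 2297 to 3018 CPM with T3, against 1885 to 2392 CPM in controls, and oligodendrocyte lineage markers to 138 to 225 CPM, against 138 to 346 CPM. Astrocyte markers summed to 10824 to 12232 CPM, against 10947 to 12736 CPM. Microglia markers summed to 65.6 to 77.2 CPM, against 54.1 to 126 CPM, and neuron markers to 151 to 174 CPM, against 163 to 221 CPM. Singly, 3 of 12 astrocyte markers were called at 24 h (Glul higher, Aldoc and Slc1a3 lower). So were 2 of 10 vascular and meningeal, 1 of 8 oligodendrocyte lineage, 0 of 12 microglia and 0 of 10 neuron markers, beside 7.09% of all genes. At 6 h, oligodendrocyte lineage markers summed to 125 to 170 CPM with T3, against 107 to 123 CPM in controls, and microglia markers to 73.7 to 82.4 CPM, against 55.8 to 73.2 CPM. Astrocyte markers summed to 13747 to 14139 CPM, against 12370 to 13468 CPM. Vascular and meningeal markers, mostly Acta2, summed to 1855 to 2123 CPM, against 2160 to 2289 CPM. Neuron markers at 6 h summed to 213 to 234 CPM with T3, against 185 to 225 CPM in controls, and these overlapped. The 6 h sums of the other lists did not overlap, and among single genes 11.5% of all those tested did not overlap. Taken singly at 6 h, 0 of 8 tested oligodendrocyte lineage, 0 of 12 microglia and 0 of 10 vascular and meningeal markers were called. Of the astrocyte markers 1 of 12 and of the neuron markers 1 of 10 were called, beside 3.77% of all genes. The part of these markers in the changes with T3 was not tested.

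Between 24 h and 6 h controls, Id4 was higher and Smad6, Smad7, Smad9 and Bmp4 were lower at the later time, where 56.6% of all genes were called (28.2% higher, 28.4% lower). Id4 averaged 188 ± 15.2 CPM at 24 h and 124 ± 6.4 CPM at 6 h (SD, n = 4 each; log2 0.60 ± 0.06, edgeR adjusted p = 4.41e-09). Smad9 averaged 34.7 ± 1.85 CPM at 24 h and 50.0 ± 2.18 CPM at 6 h (-0.53 ± 0.08, adjusted p = 5.76e-06), and Bmp4 2.16 ± 0.366 and 3.44 ± 0.572 CPM at those times (-0.67 ± 0.16, adjusted p = 0.000877). These groups did not overlap, as was so for 51.1% of all genes. Smad6 changed by -0.43 ± 0.09 (adjusted p = 0.000235) and Smad7 by -0.23 ± 0.10 (adjusted p = 0.0411). The call for Smad7 was lost without 24 h control replicate 2, 3 or 4, or without 6 h control replicate 2 or 3, at adjusted p-values up to 0.255 (range over its 18 alternatives 0.00991 to 0.255), and Id3 (0.24 ± 0.12, adjusted p = 0.0868) was called without 24 h control replicate 3 (adjusted p = 0.0412) or 6 h control replicate 4 (adjusted p = 0.0135), with a range of 0.0135 to 0.845. In all, Smad7 was called in 9 and Id3 in 6 of 18 alternatives.

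The T3-treated groups gave the same direction for those 5 genes, in libraries that the control comparison does not use. The share of all genes with the same direction in both is not given here. At 24 h with T3, against 6 h with T3, Id4 changed by 0.52 ± 0.06 (adjusted p = 1.47e-07), Smad9 by -0.43 ± 0.09 (adjusted p = 0.000154), Bmp4 by -0.80 ± 0.16 (adjusted p = 0.000138), Smad7 by -0.44 ± 0.10 (adjusted p = 0.000721) and Smad6 by -0.37 ± 0.10 (adjusted p = 0.00179, edgeR). Here 57.6% of all genes were called (29.3% higher, 28.2% lower), and 9 of the 10 members were, 4 higher and 5 lower. Id3 was higher, at 143 ± 37.7 CPM (SD, n = 3) at 24 h and 91.6 ± 5.27 CPM (SD, n = 4) at 6 h (log2 0.64 ± 0.13, adjusted p = 0.000146), and without 24 h T3 replicate 1 its log2 change was 0.41 and still called (range of the adjusted p over its alternatives 1.24e-05 to 0.0478). Id2 (0.20 ± 0.07, adjusted p = 0.0198), Id1 (0.33 ± 0.14, adjusted p = 0.0426) and Bmpr1b (-0.30 ± 0.12, adjusted p = 0.0408) were also called, but not without 24 h T3 replicate 1 (adjusted p = 0.203, 0.647 and 0.287). Id1 and Bmpr1b were further not called without 6 h T3 replicate 1, 3 or 4, and in all Id1 was called in 5 and Bmpr1b in 8 of 16 alternatives. Over 16 alternatives the adjusted p ran from 0.0111 to 0.203 for Id2, from 0.00596 to 0.780 for Id1 and from 0.00756 to 0.287 for Bmpr1b. Bambi, at 0.19 ± 0.08 (adjusted p = 0.0631), was called without 24 h T3 replicate 3 (adjusted p = 0.0101, range 0.0101 to 0.501).

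Time and lane cannot be told apart by the groups alone, since every 6 h library in these comparisons was on lane 5 and every 24 h library on lane 6 or 7. The shift from lane 5 to lane 6 could be estimated only within the CHX group, as replicate 4 against replicates 1 to 3. It thus rests on CHX replicate 4 alone, which had the highest summed oligodendrocyte lineage markers of its group, 186 CPM. With lane as a covariate in the edgeR fit, Id4 was still called between controls (adjusted p = 0.00157), and none of the 4 lower genes was. Their log2 changes were -0.36 for Smad6, -0.34 for Smad7, -0.32 for Smad9 and -0.33 for Bmp4 (adjusted p = 0.0766, 0.146, 0.0720 and 0.224). The adjusted p-values of Smad6, Smad9 and Bmp4 were the highest over their alternatives. Between the T3 groups the same covariate left Id2, Id3, Id4, Smad7 and Bmpr1b called, and ended the calls of Id1 (0.10, adjusted p = 0.780), Smad6 (-0.18, adjusted p = 0.406), Smad9 (-0.32, adjusted p = 0.0873) and Bmp4 (-0.48, adjusted p = 0.0943), again the highest values over the alternatives of each. Oligodendrocyte lineage markers summed to 138 to 346 CPM in 24 h controls, against 107 to 123 CPM in 6 h controls, with 5 of 8 tested markers called higher, beside 28.2% of all genes. Of the neuron markers 6 of 10 and of the microglia markers 4 of 12 were also called higher, and of the astrocyte markers 5 of 12 lower, beside 28.4% of all genes; the part of these markers in the changes between times was not tested.

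The order of the 6 groups by mean level differed between the genes. For Id1, Id2, Id3 and Id4 both CHX groups came last, separate from the next group and overlapping each other. For Smad7, Smad9, Bmp4, Bambi and Bmpr1b both CHX groups came first, again separate from the next group. For Smad6 every neighbour in the order overlapped, with 38.5 ± 1.30 CPM in the highest group, 6 h T3, and 27.6 ± 1.57 CPM in the lowest, the 24 h control (SD, n = 4 each).

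Over the 23 libraries, the genes whose log2 CPM followed each member most closely were sought among 12849 genes that averaged 1 CPM or more. The nearest were Trappc1 for Id1 (Pearson r = 0.990), Alas1 for Id2 (0.987), Ldhb for Id3 (0.978) and Csdc2 for Id4 (0.979). For the members that were higher with CHX they were Irf1 for Bmp4 (0.995), Rnf8 for Bambi (0.992), Tbc1d2b for Smad9 (0.993), Jun for Smad7 (0.983) and Gprin3 for Bmpr1b (0.968). Smad6 had the lowest such value, with Ier5 at 0.927. The libraries share their groups, and 8 of the 23 had CHX, so these values describe a common pattern over groups and carry no test.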

How the data were processed

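RNA was sequenced in 23 libraries as single reads of 50 bases from a kit that marks no strand (200 ng of RNA, per the labels' protocols). The deposited values are raw counts of reads per Ensembl gene, 1 table per library; per the submitters' processing notes bcl2fastq, FastQC, Bowtie, TopHat, HTSeq and edgeR were used with build GRCm38, without versions or a counting mode. The 5 closing lines of each table name no gene and were left out of library sizes: of all lines summed, alignments that were not unique took 30.7% to 42.3%, reads in no gene 3.75% to 5.81% and ambiguous reads at most 1.70%. Of 38293 identifiers, 36345 matched a GRCm38 gene annotation, which gave symbols, coordinates and exon lengths.

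Counts were fitted with edgeR 4.0.16 (R 4.3.3) by its quasi-likelihood F test, with TMM scaling, filterByExpr at a minimum count of 10, and 1 mean for each of 6 groups over all 23 libraries (17 residual degrees of freedom). P-values were adjusted by Benjamini-Hochberg over all 16087 genes tested and called under 0.05; SE is the log2 fold change divided by the root of F, and intervals are at 95%. The test was tried on simulated data first. The median log2 fold change of all genes moved by less than 0.1 between TMM and RLE scaling in each comparison. Libraries held 13843040 to 22997873 gene counts, and no 2 libraries were identical.

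Groups follow the sample titles. Alternatives were RLE scaling, unscaled library sizes for levels, no filter, DESeq2 1.42.0, lane as a covariate, a length and GC trend removed, replicate blocks, the compared groups alone, and leaving out single libraries or pairs of libraries; the fit without 24 h control replicates 2 and 4 was chosen after seeing the data. Named were all 10 members, genes from the 3 called with the smallest adjusted p for each pathway list and comparison (some are not reported here), and the closest gene to each member by correlation; single cell type markers were named after their values were seen. The members and lists were chosen with earlier results of these data known.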

Additional observations from a re-analysis of the deposited data

Results flagged for a closer look

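In the 6 h controls, replicate 4 stood apart from the other 3 libraries as the highest for Id1, at 41.9 CPM against 34.4 to 35.1 CPM in replicates 1 to 3. The same library was also apart as the highest for Bambi, at 44.9 CPM against 37.6 to 38.6 CPM. In both cases the gap to the nearest library, divided by the range of the group, passed the 95% critical value of Dixon's test for 4 samples. Of 50 groups of 4 tested in this way 2 were flagged, and chance flags about 1 in 20 groups. Without this library Id1 changed by 0.05 and Bambi by 0.18 (log2) with T3 at 6 h, and neither was called; that library also had 42.1% of its alignments not unique, and the part of this in its values was not tested.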

How the results depend on the processing

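All 10 calls with CHX against control held in the 17 alternatives, as did 9 of the 10 with CHX plus T3 against T3, all but Smad6. With lane as a covariate, 1 member was called lower with T3 at 24 h and 1 had a higher T3 effect at 24 h than at 6 h. In that fit 0 members were called lower between 24 h and 6 h controls, and 2 between the T3 groups at those times. Its lane 7 term fits 24 h T3 replicate 3 alone, and its shift from lane 5 to lane 6 rests on 6 h CHX replicate 4 against replicates 1 to 3. With only the groups compared in the fit, 0 members were called higher with T3 at 24 h. For 24 h against 6 h controls, 2 members were called higher with only those groups, after removal of the length and GC trend, and with the replicate block by title number. It is not known whether title numbers or description letters pair the libraries. Over 55 same-numbered pairs the median correlation of deviations was 0.0183, beside -0.0069 for other pairs. The 55 same-lettered pairs also gave 0.0183, beside -0.0072 for other pairs. With the block by title number, 536 genes were called higher and 224 lower with T3 at 6 h, beside 420 and 186 in the main fit. The replicate block left the counts of members called in the T3 and CHX comparisons within 1.5 times.

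Leaving out 1 library, or the 2 pairs of libraries, the members called higher with T3 at 24 h numbered 1 to 2 and those lower 0 to 1; those higher at 24 h than at 6 h numbered 1 to 2 in controls and 2 to 5 with T3. None of the members whose direction turned was called. With libraries left out, the log2 change with T3 at 24 h ran from -0.025 to 0.38 for Id1, from -0.028 to 0.34 for Id3 and from -0.021 to 0.21 for Bmp4. With T3 at 6 h it ran from -0.079 to 0.048 for Id1, from -0.014 to 0.11 for Smad6 and from -0.059 to 0.12 for Smad7. With T3 in the presence of CHX it ran from -0.038 to 0.025 for Id2, from -0.0819 to 0.039 for Id3, from -0.023 to 0.11 for Bmp4, from -0.075 to 0.018 for Bambi and from -0.0097 to 0.077 for Smad9, and between controls from -0.058 to 0.075 for Id2. With RLE scaling Id2 stood at 0.000676 with T3 in the presence of CHX and at -0.011 between controls, where DESeq2 gave -0.012. With lane as a covariate Id2 stood at 0.10 with T3 in the presence of CHX and at 0.028 for the difference of the T3 effects with and without CHX, for which Bmp4 stood at 0.11, and Id1 at -0.30 between controls. After removal of the length and GC trend, Id1 stood at 0.041 with T3 at 6 h, and Id3 at 0.040 and Id2 at 0.019 with T3 in the presence of CHX. The cause of these shifts was not tested. Bmp4 had 27 to 88 counts per library without CHX, which limits its precision there.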
